A study of Homo sapiens with 48 samples.

Results

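A set of 10 genes that mark neural progenitors and glioma cells was followed through all groups of an RNA-seq study of A382, an established human glioblastoma cell line grown in medium with serum. The 10 genes were named by symbol: SOX2, SOX4, SOX9, NES, MSI1, FABP7, CD44, VIM, GFAP and PROM1. All 10 had a row among the 19102 genes of the deposited FPKM table, in which fragments are scaled to transcript length and library depth. Cells carried a lentiviral guide RNA for 9 days or were given doxycycline for 2 days. The guides targeted EP400, TRRAP, the ATPases RUVBL1 and RUVBL2, the acetyltransferase TIP60, the bromodomain protein BRD8, ACTL6A, DMAP1, GAS41, VPS72, ING3, MEAF6, MRGBP, MORF4L1 and MORF4L2, which are subunits of the EP400/TIP60 chromatin complex, or H2AZ, the histone variant that this complex deposits. Each target had 2 guides, with 1 library per guide, except BRD8 and H2AZ, which had 2 libraries per guide. Controls were the guides sgNeg1 to sgNeg4, with 2 libraries each. The doxycycline cells carried a control vector or an inducible p53 vector, with 2 libraries each and doxycycline in both. Whether these cells were pools or clones is not given in the sources used here.

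The table holds 5 sections that were normalized separately, each with its own control, so every comparison was made within a section and levels set across sections carry each section's scale. The second guides of MEAF6 and VPS72 had the same values in all genes, so both were set aside, which left 46 of 48 libraries and 1 library each for those 2 targets. Depth was 4.33 to 22.3 estimated fragments per kilobase for each unit of FPKM, lowest in the sgNeg4 section (4.33 to 7.46). The mRNA of the targeted gene stood at 18.6% to 103.4% of its control, under 85% in 14 of 16 knockouts; the exceptions were MORF4L1 at 103.4% and MORF4L2 at 92.8%. Among genes with a single exon, 20 to 24 of 926 reached 1 FPKM in the sgNeg1 section, which holds the BRD8 libraries, against 181 to 238 in the 40 libraries of the other sections. Among all genes, 8081 to 8158 reached 1 FPKM in the sgNeg1 section, against 10503 to 11853 in the other sections. The low values of the sgNeg1 section are thus not limited to genes with a single exon. Every call and count in BRD8 was made within that section and carries this limit. SOX2 and SOX4 each have 1 exon, so their values in the sgNeg1 section are shown but not read as expression levels.

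SOX2, SOX4 and SOX9 are transcription factors of the SRY-box family: SOX2 maintains neural stem cells, SOX9 acts in gliogenesis and SOX4 in progenitor survival and differentiation. Nestin (NES), vimentin (VIM) and GFAP are intermediate filament proteins that follow each other during neural development, nestin and vimentin in progenitors and GFAP in astrocytes and in radial glia-like cells. Musashi-1 (MSI1) is an RNA-binding protein that holds back the Notch inhibitor NUMB, FABP7 is a fatty acid carrier of radial glia, prominin-1 (PROM1, CD133) is a membrane glycoprotein used to sort stem-like glioma cells, and CD44 is the hyaluronan receptor that marks mesenchymal glioblastoma cells.

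The 10 genes fell into 3 tiers of level. VIM ranged from 2382 to 11301 FPKM in the 40 libraries outside the sgNeg1 section, with a median of 6081, and stood at or above the 99.9th percentile of its library. CD44 ranged from 118 to 643 FPKM there, at the 97th to 99.8th percentile. SOX9 ranged from 20.3 to 64.7 FPKM, SOX4 from 18.1 to 61.7 FPKM and SOX2 from 6.64 to 79.0 FPKM. NES was under 1 FPKM in all 42 guide libraries and between 1.55 and 8.75 FPKM in the 4 doxycycline libraries. MSI1, FABP7, GFAP and PROM1 never reached 1 FPKM. Their highest values in any library were 0.239, 0.154, 0.347 and 0.313 FPKM. FABP7 was listed at 0 in 41 of 46 libraries, MSI1 in 30, PROM1 in 22 and GFAP in 6. MSI1 and PROM1 were listed at 0 in all 10 libraries of the sgNeg3 section. Estimated fragments of GFAP numbered at most 39.2 in a library. In the gene models GFAP overlaps CCDC103 on the opposite strand. The libraries were strand-specific, and any part of this overlap in the GFAP values was not tested. At these depths no change of MSI1, FABP7, GFAP or PROM1 could be measured in a knockout. The line thus carried RNA for the SOX factors, vimentin and CD44, but little or none for the GFAP, FABP7, MSI1 and PROM1 markers.

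**Figure D1:**
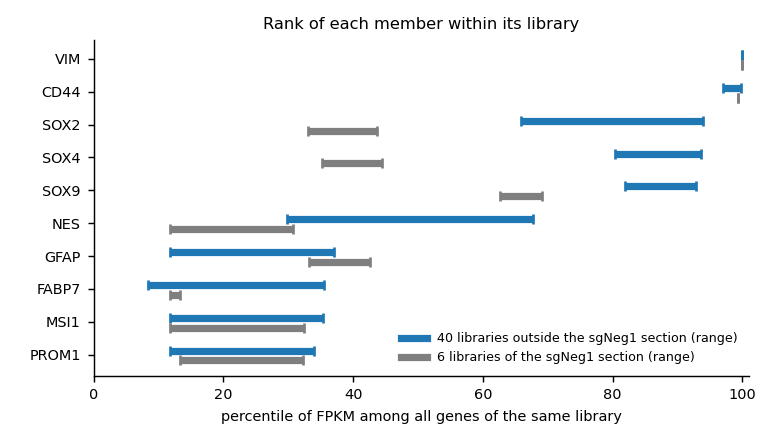
Rank of each of the 10 genes among all genes of the same library, as a percentile of FPKM (x axis). Bars span the lowest to the highest library, blue for the 40 libraries outside the sgNeg1 section and grey for the 6 libraries within it. VIM and CD44 sit at the top, the 3 SOX genes above the 65th percentile outside the sgNeg1 section, and MSI1, FABP7, GFAP and PROM1 below the 38th percentile there.

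Other lineage markers put the line in context. OLIG2, a glial progenitor factor, was listed at 0 in both sgNeg2 libraries, and POU3F2 had a mean of 0.0133 FPKM. Both belong to a list of 33 other neural stem and glioma regulators, most of which were present. Of these, 24 reached 1 FPKM in some library of the sgNeg2 section and 20 did so in all 20 libraries. The astrocyte markers AQP4, HEPACAM and MLC1 were listed at 0 in sgNeg2, while 10 of the 25 genes of the astrocyte and radial glia list had a mean of at least 1 FPKM. Immune genes summed to 14.8 to 18.7 FPKM in the sgNeg2 libraries, of which CD68 alone held a mean of 16.6, with PTPRC, CD3E and CD163 among those listed at 0. Epithelial genes summed to 1.20 FPKM in each of these libraries. Endothelial genes summed to 3.77 to 5.29 FPKM.

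The 250 bases upstream of the transcription start are shown for SOX2 and NES, which had the largest falls among the members, and for CD44, which had the largest rise. They are RefSeq sequences of build GRCh38.p14 from the strand of the gene, chr3:181711675-181711924 on the plus strand for SOX2, chr1:156677408-156677657 on the minus strand for NES and chr11:35138921-35139170 on the plus strand for CD44. Capitals mark CCAAT boxes (CCAAT, or ATTGG on the other strand) and GC boxes (GGGCGG, or CCGCCC on the other strand).
SOX2: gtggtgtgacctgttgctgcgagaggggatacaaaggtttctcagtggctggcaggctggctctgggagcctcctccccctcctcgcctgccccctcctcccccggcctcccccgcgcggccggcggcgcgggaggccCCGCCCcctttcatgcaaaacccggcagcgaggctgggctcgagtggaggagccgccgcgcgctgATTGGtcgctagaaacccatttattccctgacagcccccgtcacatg
NES: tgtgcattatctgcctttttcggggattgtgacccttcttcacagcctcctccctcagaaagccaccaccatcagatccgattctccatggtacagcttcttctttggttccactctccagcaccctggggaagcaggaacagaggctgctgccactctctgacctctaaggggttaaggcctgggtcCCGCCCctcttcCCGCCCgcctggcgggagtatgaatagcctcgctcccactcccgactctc
CD44: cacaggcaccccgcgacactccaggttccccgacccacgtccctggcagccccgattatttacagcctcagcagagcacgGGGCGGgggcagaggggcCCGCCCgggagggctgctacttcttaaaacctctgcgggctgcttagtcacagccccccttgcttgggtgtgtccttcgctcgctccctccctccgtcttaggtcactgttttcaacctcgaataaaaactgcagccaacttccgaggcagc
The SOX2 window was 68.8% G and C with 20 CpG pairs and held 1 CCAAT box and 1 GC box. The NES window was 58.0% G and C with 8 CpG pairs and 2 GC boxes. The CD44 window was 62.4% G and C with 15 CpG pairs and 2 GC boxes. Over 35116 promoters of the same length the medians were 58.0% and 11 CpG pairs. A CCAAT box occurred in 32.0% of these promoters and a GC box in 42.6%. No TATAAA box and no p53 half-site were found in the 3 windows on either strand, against 10.7% and 5.57% of all promoters. The other windows searched were those of SOX4, FABP7, PROM1 and VIM; the VIM entry did not match the start of any VIM transcript in the reference.

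Among the members that passed the filter on low values (1 FPKM or more in at least 2 libraries of a section), SOX2 had the largest falls in the knockouts on the log2(FPKM + 1) scale. It was lower in 4 of the 15 knockouts in which it was tested, TIP60, RUVBL1, RUVBL2 and H2AZ, and higher in none. In the sgNeg2 pair SOX2 stood at 32.1 and 38.2 FPKM. With the 2 guides against TIP60, the acetyltransferase of the complex, it stood at 6.64 and 9.14 FPKM. Both TIP60 libraries lay below every other library of the section, and the mean was 22.5% of control. The log2 fold change on the log2(FPKM + 1) scale was -2.03 ± 0.27 (SE), with an adjusted p of 4.2e-05 by limma (Benjamini-Hochberg over all genes tested, as for every adjusted p here). This was the 45th lowest of 11382 genes tested, of which 42% were called at an adjusted p under 0.05. From bulk RNA, fewer cells with the transcript and less transcript per cell cannot be told apart. Members called in TIP60 were 2 of 5 tested.

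In the sgNeg3 pair SOX2 stood at 39.7 FPKM in each library. RUVBL1 and RUVBL2 are the paired AAA+ ATPases that several chromatin complexes share. Against RUVBL1 the guides gave 12.3 and 9.37 FPKM of SOX2, and against RUVBL2 they gave 9.77 and 8.57 FPKM. All 4 libraries lay below all 6 others of the section. The log2 fold changes were -1.80 ± 0.14 in RUVBL1 (adjusted p = 0.000222, the 22nd lowest of 11063 genes) and -2.0 ± 0.14 in RUVBL2 (adjusted p = 7.3e-05, the 27th lowest). The share of all genes called was 27.8% in RUVBL1 and 33.4% in RUVBL2, and members called were 2 of 5 and 3 of 5. RUVBL2 minus RUVBL1 was -0.21 for SOX2 with a 95% interval of -0.53 to 0.11 and no difference was detectable. In that contrast 0.00904% of genes, and none of the 5 members, were called.

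H2AZ is the variant histone found at promoters and enhancers. SOX2 stood at 70.5 and 79.0 FPKM in the sgNeg4 pair. With H2AZ guide 1 it stood at 51.0 and 40.03 FPKM, and with guide 2 at 44.2 and 43.3 FPKM. All 4 knockout libraries lay below both controls, at a mean of 59.7%. The log2 fold change was -0.73 ± 0.11 (adjusted p = 0.00491). It was the only one of 5 members called, where 6.02% of all genes were called. Guide 2 minus guide 1 was -0.05 with a 95% interval of -0.36 to 0.26, and 0% of genes were called between the H2AZ guides (301 at an unadjusted p under 0.05).

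The fall of SOX2 in TIP60 was compared directly with EP400, the ATPase that exchanges H2A.Z, and with TRRAP, the scaffold for TIP60. SOX2 stood at 23.6 and 32.8 FPKM with the EP400 guides and at 29.6 and 21.5 FPKM with the TRRAP guides. The upper EP400 library lay between the 2 controls, and both TRRAP libraries lay below them. SOX2 in TIP60 was lower than in EP400 by a log2 difference of -1.71 ± 0.27 (adjusted p = 0.000647, the 11th lowest of 11382) and lower than in TRRAP by -1.57 ± 0.27 (adjusted p = 0.000459). In these contrasts 21.3% and 38.2% of all genes were called. No other member was called between TIP60 and either knockout. VIM, though not called, stood at 7470 and 9068 FPKM in TIP60, against 6045 and 6550 FPKM in EP400 and 5615 and 5804 FPKM in TRRAP. In GAS41, a reader of acetylated histones, SOX2 stood at 22.4 and 18.4 FPKM, both below both controls. The difference of -0.76 ± 0.27 was not called (adjusted p = 0.18).

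**Figure D2:**
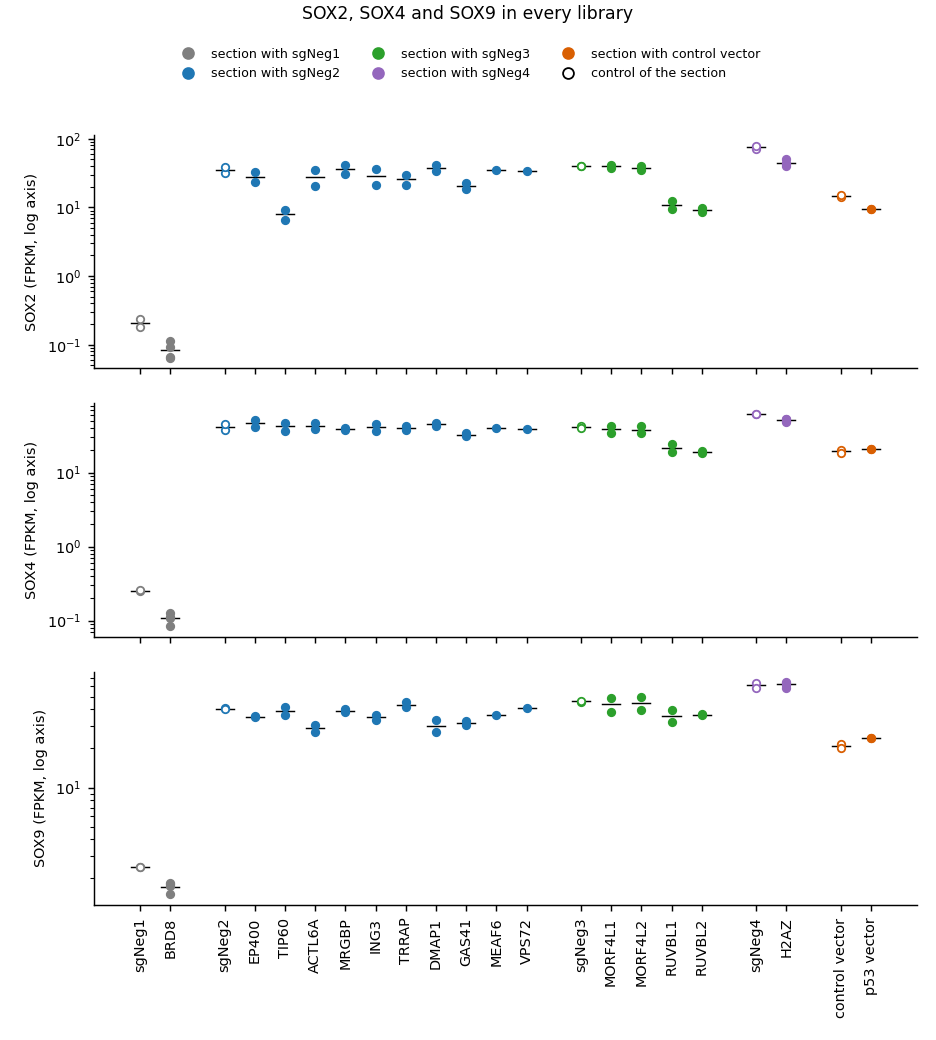
FPKM of SOX2, SOX4 and SOX9 (log axes) in each of the 46 libraries, by target, with colours for the separately normalized sections, open points for controls and short lines for group means. SOX2 is low in TIP60, RUVBL1 and RUVBL2, SOX4 is lowest relative to its control in RUVBL1 and RUVBL2 outside the sgNeg1 section, and SOX9 stays between 26.7 and 64.7 FPKM in the guide libraries outside the sgNeg1 section.

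SOX4 fell with SOX2 in RUVBL1 and RUVBL2 and not in TIP60. It stood at 42.8 and 40.1 FPKM in the sgNeg3 pair, at 24.5 and 19.0 FPKM with the RUVBL1 guides and at 19.6 and 18.1 FPKM with the RUVBL2 guides. The groups did not overlap. The log2 fold changes were -0.91 ± 0.16 (adjusted p = 0.00499) and -1.10 ± 0.16 (adjusted p = 0.00148). The RUVBL1 call was lost without sgNeg3 replicate 1 or without RUVBL1 guide 2 (adjusted p = 0.0501 and 0.0584). In TIP60, SOX4 stood at 36.9 and 47.2 FPKM against 37.6 and 45.7 FPKM in sgNeg2, a log2 difference of 0.01 with a 95% interval of -0.34 to 0.36. Over the 13 knockouts in which SOX4 was tested and not called, TIP60 included, its differences ran from -0.34 in GAS41 to 0.14 in EP400. In H2AZ it stood at 48.8 to 53.1 FPKM against 61.1 and 61.7 FPKM (adjusted p = 0.117).

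SOX9 was called in 1 of 16 knockouts, BRD8, where it fell from 2.45 and 2.47 FPKM in sgNeg1 to 1.51, 1.85, 1.80 and 1.74 FPKM. The log2 fold change was -0.35 ± 0.07 (adjusted p = 0.00414). SOX9 has 3 exons, but its level in the sgNeg1 section was far below that of the other sections, where the lowest library held 20.3 FPKM. Elsewhere SOX9 stood at 40.8 and 40.3 FPKM in sgNeg2 and at 30.1 and 27.0 FPKM in ACTL6A, an actin-related subunit. That difference of -0.49 was not called (adjusted p = 0.0815), nor was the one of -0.44 in DMAP1 (adjusted p = 0.314), where the guides gave 26.7 and 33.1 FPKM.

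CD44 was higher in 3 of 16 knockouts, BRD8, TIP60 and TRRAP, and lower in none. In the sgNeg1 section it rose from 169 and 172 FPKM to 211 and 207 FPKM with BRD8 guide 1 and to 233 and 238 FPKM with guide 2. BRD8 is the bromodomain subunit of the complex. The log2 fold change was 0.38 ± 0.07 (adjusted p = 0.00188), and 45.9% of all genes tested were called in BRD8. CD44, SOX9 and VIM were the 3 members tested there, and all 3 were called. Guide 2 minus guide 1 was 0.17 for CD44 (adjusted p = 0.33), and 0.0118% of genes were called between the BRD8 guides.

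In the sgNeg2 pair CD44 stood at 349 and 372 FPKM. With the TRRAP guides it stood at 578 and 643 FPKM, the 2 highest values of the section. The log2 fold change was 0.76 ± 0.16 (adjusted p = 0.00801), the only call among 5 members where 14.2% of all genes were called. With the TIP60 guides it stood at 572 and 473 FPKM, a change of 0.53 ± 0.16 (adjusted p = 0.015). With the EP400 guides it stood at 501 and 517 FPKM, also above both controls, and the change of 0.50 ± 0.16 was not called (adjusted p = 0.0933), where 3.83% of all genes were called and none of the 5 members. TIP60 minus TRRAP was -0.23 with a 95% interval of -0.57 to 0.11 for CD44. TIP60 minus EP400 was 0.03 with an interval of -0.31 to 0.37. The TRRAP call was lost without sgNeg2 replicate 1 or without TRRAP guide 2 (adjusted p = 0.0701 and 0.123), and the TIP60 call without sgNeg2 replicate 1 or without TIP60 guide 1 (adjusted p = 0.0851 and 0.1). Both were also lost when the libraries of the comparison were fitted alone (adjusted p = 0.1003 and 0.181). In TRRAP the immune list summed to 37.2 to 74.2 FPKM against 14.8 to 18.7. Of this list, CD68 stood at a mean of 55.5 FPKM against 16.6. It was the only one of the 12 immune genes at a mean of at least 1 FPKM, and AIF1, CD3E, CD163, TYROBP and HLA-DRA were among those listed at 0; its part in the CD44 result was not tested. The fibroblast and pericyte list summed to 335 to 482 FPKM in TRRAP against 724 to 780 FPKM, with LUM listed at 0 in both, and its part was not tested either.

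VIM was lower in BRD8 and RUVBL2. In BRD8 it stood at 926, 968, 1054 and 1046 FPKM against 1341 and 1324 FPKM in sgNeg1, a log2 fold change of -0.42 ± 0.07 (adjusted p = 0.00123). In RUVBL2 it stood at 3274 and 3492 FPKM against 6220 and 6378 FPKM in sgNeg3, a change of -0.90 ± 0.30 (adjusted p = 0.0458). RUVBL1 gave 4318 and 4223 FPKM, and its change of -0.56 ± 0.30 was not called (adjusted p = 0.19). The fibroblast and pericyte list summed to 425 to 464 FPKM in RUVBL2 against 775 to 789 FPKM in sgNeg3. In these groups 6 and 8 of its 12 genes had a mean of at least 1 FPKM, and LUM was listed at 0 in sgNeg3. All libraries are of the A382 line, and the part of this list in the VIM result was not tested. The RUVBL2 call was lost when any 1 of its 4 libraries was left out (adjusted p = 0.173 to 0.222). In TIP60, VIM stood at 9068 and 7470 FPKM against 6138 and 5660 FPKM, both above both controls, and the change of 0.48 ± 0.27 was not called (adjusted p = 0.162).

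**Figure D3:**
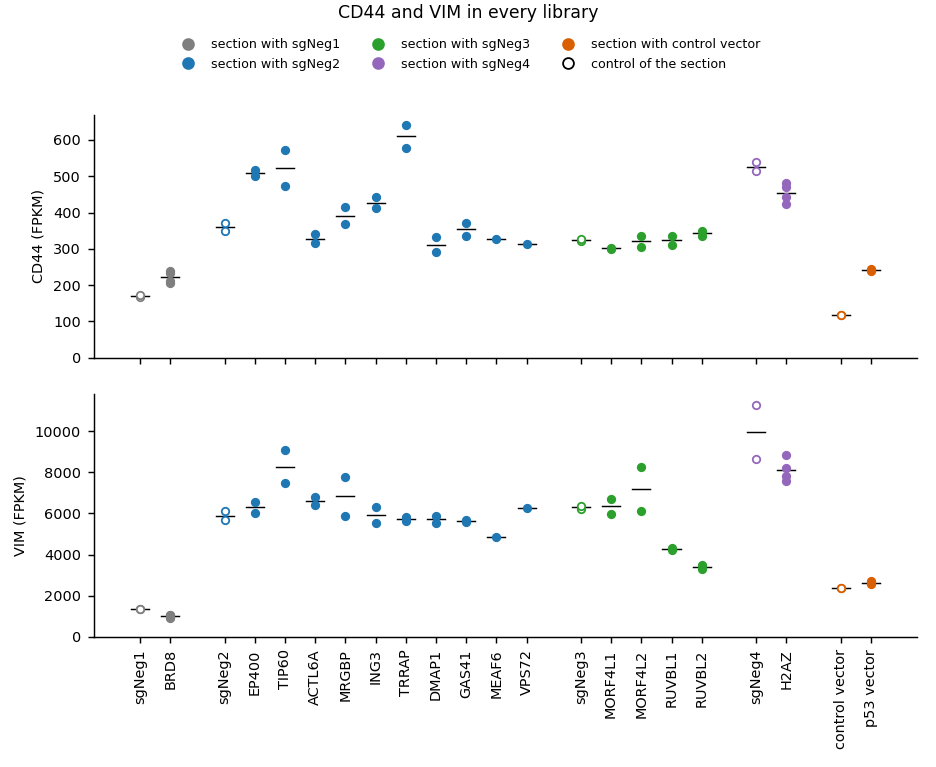
FPKM of CD44 and VIM (linear axes from 0) in each of the 46 libraries, by target, with colours for sections, open points for controls and short lines for group means. CD44 is highest in TRRAP, TIP60 and EP400 within the sgNeg2 section and reaches 206% of its control level in the p53 vector, while VIM is lowest in RUVBL1 and RUVBL2 within the sgNeg3 section.

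No member was called in 10 of the 17 comparisons with a control. These were EP400, ACTL6A, DMAP1, GAS41, ING3, MRGBP, MEAF6, VPS72, MORF4L1 and MORF4L2, with 5 members tested in each. Of these 50 tests, 5 had an unadjusted p under 0.05 in limma, for CD44 in EP400, SOX9 in ACTL6A, DMAP1 and GAS41, and SOX2 in GAS41. Of all 11382 genes tested in the sgNeg2 section, 2237 had such a p in EP400, 1776 in ACTL6A and 1923 in GAS41. In MRGBP and ING3 they numbered 1459 and 1085. Few genes were called in these comparisons at all: 3.83% in EP400, 0.782% in ACTL6A, 0.264% in MRGBP, 0.0264% in ING3 and 0.94% in GAS41. In DMAP1, MEAF6, VPS72, MORF4L1 and MORF4L2 the share was 0%, with 1021, 415, 402, 85 and 230 genes at an unadjusted p under 0.05. Over all 16 knockouts, 12 of 78 tests of a member were called, 9 lower and 3 higher. The share of all genes called ran from 0% to 45.9% (BRD8) in these knockouts. The change of each member against its control is drawn for all 17 comparisons.

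**Figure D4:**
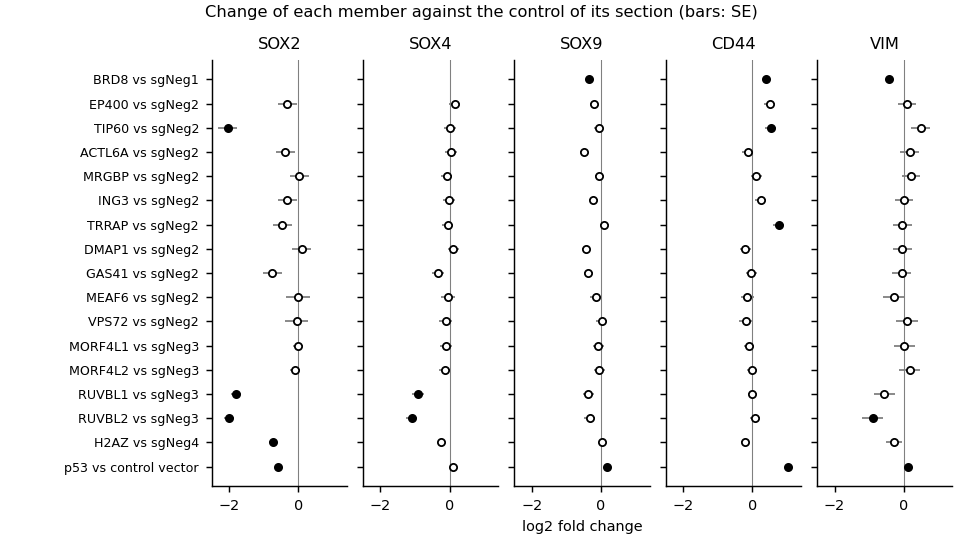
Log2 fold change on the log2(FPKM + 1) scale (x axis, bars show the SE) of SOX2, SOX4, SOX9, CD44 and VIM in each comparison with the control of the same section; filled points passed an adjusted p under 0.05. SOX2 lies near -2 in TIP60, RUVBL1 and RUVBL2, CD44 is highest in the p53 vector at 1.03, and SOX2 and SOX4 were not tested in BRD8.

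NES, under 1 FPKM in every guide library, lay below both controls in many knockouts, with and without a call of another member. It stood at 0.347 and 0.489 FPKM in sgNeg2, at 0.0994 and 0.0902 FPKM in TIP60, at 0.103 and 0.0759 FPKM in TRRAP and at 0.129 and 0.124 FPKM in EP400. In ACTL6A it stood at 0.157 and 0.0868 FPKM, in ING3 at 0.123 and 0.166 FPKM and in GAS41 at 0.188 and 0.0813 FPKM, where no member had been called. In sgNeg3 it stood at 0.573 and 0.634 FPKM, in RUVBL1 at 0.216 and 0.232 FPKM and in RUVBL2 at 0.154 and 0.200 FPKM. In sgNeg4 it stood at 0.965 and 0.762 FPKM and in H2AZ at 0.279, 0.117, 0.487 and 0.363 FPKM. In each of these 9 knockouts all libraries lay below both controls, at group means of 21.4% (TRRAP) to 37.1% (RUVBL1) of control. TIP60, TRRAP, EP400, ACTL6A, ING3 and GAS41 share the sgNeg2 pair, and RUVBL1 and RUVBL2 the sgNeg3 pair. The 9 are therefore not separate observations, and the share of all genes that lay below both controls is not given here. The values rest on few reads, an estimated 4.84 to 45.5 fragments a library in the sgNeg2 section and 13.6 to 63.4 in the sgNeg3 section.

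Because NES did not pass the filter on low values, it was tested in a fit without that filter. The log2 differences on the log2(FPKM + 1) scale were -0.37 in TIP60 (adjusted p = 0.00566, where 32.5% of genes were called), -0.38 in TRRAP (adjusted p = 0.0235, 7.55%), -0.39 in RUVBL1 (adjusted p = 0.00447, 18.3%) and -0.45 in RUVBL2 (adjusted p = 0.00157, 23.8%). EP400 (-0.33, adjusted p = 0.0774, 0.908%) and H2AZ (-0.51, adjusted p = 0.0703, 2.97%) were not called, nor were ACTL6A (-0.34, adjusted p = 0.135, 0.196%), GAS41 (-0.32, adjusted p = 0.142, 0.0178%) and ING3 (-0.31, adjusted p = 0.297, 0.0237%). A pseudocount of 1 shrinks changes at this level. With a pseudocount of 0.1, chosen after the values were seen, the differences were -1.40 ± 0.31 in TIP60, -1.44 ± 0.31 in TRRAP, -1.12 ± 0.19 in RUVBL1 and -1.35 ± 0.19 in RUVBL2. They were of similar size in the uncalled knockouts: -1.31 ± 0.40 in H2AZ, -1.23 ± 0.31 in ACTL6A, -1.18 ± 0.31 in EP400, -1.17 ± 0.31 in GAS41 and -1.07 ± 0.31 in ING3, with adjusted p of 0.089 to 0.312. NES was not lower throughout: it stood at 0.434 and 0.598 FPKM in MRGBP, 0.816 and 0.723 FPKM in MORF4L1 and 0.528 FPKM in the single MEAF6 library. In DMAP1 and MORF4L2 its libraries overlapped the controls.

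**Figure D5:**
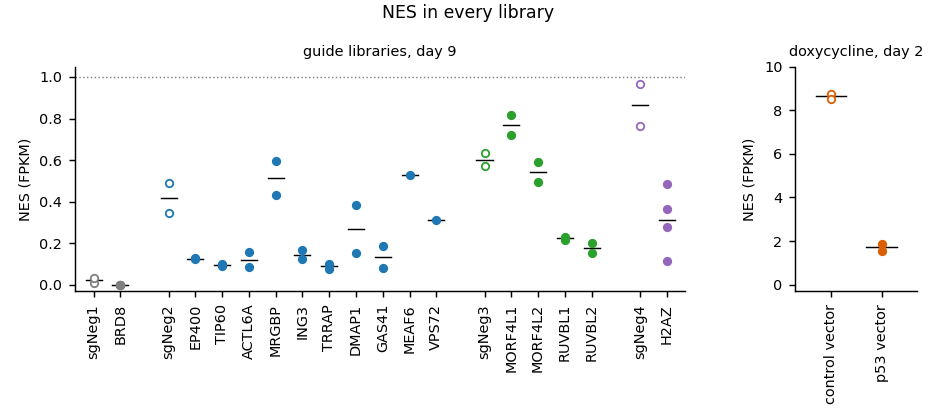
FPKM of NES in each library, on separate linear axes for the guide libraries (left, dotted line at 1 FPKM) and the doxycycline libraries (right). Open points are controls and short lines group means; all libraries lie below the 2 controls in EP400, TIP60, ACTL6A, ING3, TRRAP, GAS41, RUVBL1, RUVBL2, H2AZ, BRD8 and the single VPS72 library, and the control vector lies above 8 FPKM against under 2 FPKM in the p53 vector.

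Under induced p53, NES and SOX2 were lower and CD44 was higher, at 206% of its control. Of 6 members tested 5 were called, in a comparison where 84.3% of all genes were called. NES stood at 8.75 and 8.53 FPKM in the control vector and at 1.88 and 1.55 FPKM in the p53 vector, a log2 fold change of -1.83 ± 0.09 (adjusted p = 1.09e-06) and the 127th lowest of 12203 genes. SOX2 fell from 14.3 and 14.9 FPKM to 9.55 and 9.44 FPKM, a change of -0.57 ± 0.06 (adjusted p = 8.09e-05). CD44 rose from 118 FPKM in both control libraries to 239 and 245 FPKM, a change of 1.03 ± 0.04 (adjusted p = 3.92e-07). The median absolute change of all genes was 0.65 here, so the change of SOX2 was below it and those of NES and CD44 above.

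SOX9 and VIM moved little under p53. SOX9 rose from 21.8 and 20.3 FPKM to 24.1 and 24.0 FPKM, 0.18 ± 0.06 (adjusted p = 0.0199). VIM rose from 2386 and 2382 FPKM to 2685 and 2540 FPKM, 0.13 ± 0.05 (adjusted p = 0.0339). Both calls were lost without control vector replicate 2 (adjusted p = 0.151 and 0.155), and that of VIM also without control vector replicate 1 (adjusted p = 0.150). SOX4, at 20.4 and 18.4 FPKM against 21.0 and 20.8 FPKM, was not called (0.10 ± 0.06, adjusted p = 0.165). Scaling every library to the same median shifted all changes up by 0.117, the median of all genes having been -0.13; SOX4 was then called (0.22, adjusted p = 0.0134). The same scaling shifted TIP60 by 0.103 and moved the share of called genes that were higher from 36.7% to 49.3%, with SOX2 at -1.93 and CD44 at 0.63, both called.

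In the p53 vector the immune list summed to 54.9 to 57.0 FPKM against 9.24 to 10.7 FPKM in the control vector, with 3 of 12 genes at a mean of at least 1 FPKM. These 3 were TYROBP, which rose from a mean of 0.107 to 24.3 FPKM, ITGAM and CD68, while AIF1, CD3E and LYZ were among those listed at 0. Their part in the CD44 result was not tested. The fibroblast and pericyte list fell in sum from 854 to 872 FPKM to 317 to 323 FPKM, with LUM listed at 0 in the p53 vector, and this was likewise not tested against the members.

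The level of NES relative to VIM separated the doxycycline libraries from the guide libraries. NES amounted to 0.358% to 0.367% of VIM within the control vector libraries and to 0.0609% to 0.0700% within the p53 vector libraries, and in every guide library it was at most 0.0136%. Relative to SOX2, NES was at most 2.48% in the guide libraries outside the sgNeg1 section, reached in RUVBL1 guide 2. It was 16.4% and 19.7% in the p53 vector and 57.1% and 61.2% in the control vector. In the sgNeg1 section, where SOX2 itself is not read, 1 control library was listed at 19.1%. A ratio within a library cancels a scale shared by all genes of a section, but not an effect that differs between genes. CD44 as a percentage of VIM stood at 12.57% and 12.98% in the sgNeg1 pair. It stood at 5.69% and 6.578% in sgNeg2, 5.181% and 5.115% in sgNeg3 and 4.763% and 5.934% in sgNeg4. In the control vector it stood at 4.931% and 4.942%. Whether effects of a section touch the NES ratios was not tested. SYNM, the filament partner synemin, had a mean of 77.4 FPKM in the control vector and 9.27, 6.25 and 7.42 FPKM in sgNeg2, sgNeg3 and sgNeg4, values that carry each section's scale. The 2 kinds of library, guide and doxycycline, differ in section, vector, day and treatment, which cannot be told apart.

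Lists of related genes were counted beside the share of all genes called in each direction. Of all genes tested, 12.3% were higher and 15.5% lower in RUVBL1, 13.5% and 19.9% in RUVBL2, 15.4% and 26.6% in TIP60, 6.54% and 7.71% in TRRAP, 2.6% and 3.42% in H2AZ and 24.2% and 21.7% in BRD8. A gene that passed the filter on low values only through the group in which it is high had to differ, which touches these counts.

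Relatives of the SOX members were taken from a list of 13 other SOX genes. In RUVBL1 and RUVBL2, 4 of 5 tested were lower and none higher, with a list median of -0.50 and -0.79 against -0.02 and -0.05 for all genes. Scaled to the section median, 3 of 5 were lower in RUVBL1. SOX21, a SOXB2 repressor, fell by 1.00 ± 0.15 (adjusted p = 0.00248) and 1.11 ± 0.15 (adjusted p = 0.000966) on the log2 scale. SOX11 fell by 0.81 ± 0.18 (adjusted p = 0.0106) and 1.13 ± 0.18 (adjusted p = 0.00176). In TIP60, 2 of 7 were lower and 3 higher. In the sgNeg2 section 7 of the 13 reached 1 FPKM in some library but only 2 in all 20, so the number higher is not read. SOX12 fell by 1.52 ± 0.16 (adjusted p = 7.36e-06) and SOX21 fell by 1.35 ± 0.22 (adjusted p = 0.000175). SOX3, a SOXB1 factor like SOX2, was higher by 0.89 ± 0.19. Whether SOX3 passed the filter through the TIP60 libraries alone is not given here, so its test is not read. In TRRAP 2 of 7 were lower, SOX12 and SOX11, and in H2AZ 1 of 5, SOX21 (-0.98 ± 0.17, adjusted p = 0.0104). Under p53, 11 of the 13 reached 1 FPKM in some library but only 3 in all 4, so no count is read there. SOX21 had a mean of 0.438 FPKM in the control vector and 15.1 in the p53 vector, SOX7 0.241 and 16.0, and SOX8 0.0261 and 6.63, and all 3 passed the filter through the p53 libraries alone. SOX21 was lower than its control in the 4 knockouts with lower SOX2. Its higher value in the p53 vector is tied to the filter, so no opposite response is read from it.

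Other neural stem cell and glioma regulators were counted in the same way. Of 22 tested in the sgNeg3 section, 8 were lower and 1 higher in RUVBL1, and 10 lower and 1 higher in RUVBL2. In TIP60, 6 of 24 were lower and 4 higher, in TRRAP 6 lower and 1 higher, and in H2AZ 2 lower and 1 higher. With libraries scaled to the section median the counts were 6 lower and 1 higher in RUVBL1, 7 lower and 1 higher in RUVBL2, 5 lower and 4 higher in TIP60, 5 lower and 1 higher in TRRAP and 2 each way in H2AZ. ITGA6, the laminin receptor chain used to enrich glioma stem cells, fell by 1.43 ± 0.16 (adjusted p = 1.02e-05) in TIP60 and by 1.30 ± 0.22 (adjusted p = 0.00253) in RUVBL2. ID3, an inhibitor of basic helix-loop-helix factors, fell by 1.21 ± 0.30 (adjusted p = 0.00406) in TIP60 and 1.55 ± 0.16 (adjusted p = 0.00024) in RUVBL2, from means of 223 and 190 FPKM. MEIS1, a homeobox factor, fell by 1.11 ± 0.16 (adjusted p = 8.43e-05) in TIP60 and by 1.21 ± 0.15 (adjusted p = 0.000648) in RUVBL2. In BRD8, 7 of 14 were higher (6 when scaled) and 3 lower, where 24.2% and 21.7% of all genes were, ID2 rising by 0.87 ± 0.19 (adjusted p = 0.00401) and ITGA6 falling by 0.86 on the log2 scale (adjusted p = 1.92e-05). Under p53, 12 of 25 were higher and 10 lower, where 37.6% of all genes were higher and 46.7% lower, and scaled to the section median 14 were higher and 7 lower. In this list 25 genes reached 1 FPKM in some doxycycline library but 20 in all 4, so nothing is read from these counts. ID2 stood at a mean of 86.9 against 20.1 FPKM and BMI1, a Polycomb protein, at 4.5 against 15.2 FPKM.

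The Notch pathway, on which MSI1 acts, was expressed without MSI1, and its paralog MSI2 stood at a mean of 50.3 FPKM in sgNeg2. In TIP60, 10 of 21 tested Notch and Musashi genes were lower and 2 higher. The counts were 7 lower and 1 higher of 22 in RUVBL1, and 9 lower and 2 higher of 22 in RUVBL2. Of all genes, 26.6%, 15.5% and 19.9% were lower in these 3 knockouts. Scaled to the section median, 8 were lower and 3 higher in TIP60, and 9 lower and 3 higher in RUVBL2. HEY1, a target of Notch signalling, fell by 1.45 ± 0.33 (adjusted p = 0.00272) in TIP60, by 1.51 ± 0.15 (adjusted p = 0.00024) in RUVBL2 and by 0.88 ± 0.13 (adjusted p = 0.00453) in H2AZ. The coactivator MAML2 fell by 1.60 ± 0.21 (adjusted p = 3.03e-05) in TIP60. In BRD8, MSI2 fell by 0.80 ± 0.08 (adjusted p = 4.49e-05), with 5 of 17 lower and 3 higher (2 when scaled), against 21.7% and 24.2% of all genes. Under p53, 10 of 22 were higher and 11 lower, where 37.6% and 46.7% of all genes were. In this list 23 genes reached 1 FPKM in some doxycycline library but 20 in all 4, so nothing is read from these counts. The ligand JAG2, which passed the filter through the p53 libraries alone, had a mean of 0.135 FPKM in the control vector and 57.8 FPKM in the p53 vector. The receptor NOTCH3 had means of 1.90 and 29.3 FPKM.

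Partners of CD44 did not all move with it. SPP1 (osteopontin), a CD44 ligand, rose in both BRD8 (1.91 ± 0.18, adjusted p = 4.05e-05) and TIP60 (2.86 ± 0.32, adjusted p = 1.01e-05). HAS2, which makes hyaluronan, rose by 1.52 ± 0.22 (adjusted p = 6.61e-05) in TIP60 and fell by 1.00 ± 0.16 (adjusted p = 0.00189) in RUVBL2. VCAN, a hyaluronan-binding proteoglycan, fell by 1.54 ± 0.27 (adjusted p = 0.00312) in TRRAP. Of 12 tested partners, 6 were higher and 4 lower in TIP60, and 2 higher and 1 lower in TRRAP. Of 11, 1 was higher and 7 lower in RUVBL2 and 2 higher and 6 lower in BRD8. Scaled to the section median, 6 were higher and 3 lower in TIP60, 3 higher and 2 lower in TRRAP, 1 higher and 5 lower in RUVBL2 and 2 higher and 6 lower in BRD8. Of all genes, 15.4% were higher and 26.6% lower in TIP60, 6.54% and 7.71% in TRRAP, 13.5% and 19.9% in RUVBL2, and 24.2% and 21.7% in BRD8. Among intermediate filaments, the nuclear lamin LMNB1 fell by 2.40 ± 0.16 (adjusted p = 7e-05) in RUVBL2. The neurofilament NEFL fell by 1.07 on the log2 scale in both BRD8 (adjusted p = 8.49e-05) and RUVBL2 (adjusted p = 0.0053). The hair keratin KRT81 rose by 2.82 ± 0.31 (adjusted p = 8.51e-06) in TIP60. Whether SPP1, HAS2 or KRT81 passed the filter only through the groups in which they are high is not given here. Their rises are therefore given as sizes, and no weight is put on their adjusted p.

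Lineage lists were counted next. Mesenchymal glioblastoma genes, the class to which CD44 belongs, were 12 higher and 5 lower of 33 in TIP60, 6 higher and 2 lower of 33 in TRRAP and 11 higher and 10 lower of 30 in BRD8, with the matrix protein FN1 rising by 1.99 ± 0.25 (adjusted p = 2.34e-05) in TIP60 and the urokinase receptor PLAUR by 1.04 ± 0.09 (adjusted p = 3.02e-05) in BRD8. The shares of all genes were 15.4% higher and 26.6% lower in TIP60, 6.54% and 7.71% in TRRAP and 24.2% and 21.7% in BRD8. Scaled to the section median, the mesenchymal counts were 13 higher and 5 lower in TIP60, 6 higher and 3 lower in TRRAP and 11 each way in BRD8. These are the knockouts in which CD44 was called higher. Mesenchymal counts of the other knockouts and of the p53 vector, where CD44 was also higher, are not reported here. Whether the list moves with CD44 is therefore not read. Astrocyte and radial glia genes were 0 higher and 5 lower of 11 in both RUVBL1 and RUVBL2, where 15.5% and 19.9% of all genes were lower, with the secreted factor PTN falling by 1.37 ± 0.13 (adjusted p = 0.000165) in RUVBL2. Neuronal genes were 1 higher and 5 lower of 9 in RUVBL2 and 0 higher and 5 lower of 9 in TRRAP, where STMN2, a growth cone protein, fell by 2.23 ± 0.32 (adjusted p = 0.0013). Of the 25 astrocyte and radial glia genes, 18 reached 1 FPKM in a doxycycline library but 14 in all 4, so no count is read under p53. The small heat shock protein CRYAB, which passed the filter through the p53 libraries alone, had a mean of 176 FPKM in the p53 vector against 0.297, and APOE of 6.06 against 102 FPKM. GFAP stayed under 0.05 FPKM in these 4 libraries.

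Across the 36 guide libraries outside the sgNeg1 section, the genes most like each member were found among 7813 genes by Pearson's r of log2(FPKM + 1) after removing the mean of each section. Libraries of a section share their control, scale and depth, so r is given as a description only. SOX2 was followed most closely by KIAA0040 (r = 0.962), the scaffold gene HOMER2 (r = 0.957) and the adhesion gene FLRT2 (r = 0.954). SOX4 was followed by MALT1 (r = 0.914), MAN1A1 (r = 0.899) and CENPE (r = 0.899). SOX9 was followed less closely, among others by DDR1 (r = 0.778) and CMTM6 (r = 0.765). CD44 was followed by TMED10 (r = 0.852), PLAU (r = 0.842) and FAM107B (r = 0.841), and VIM by CDKN2AIPNL (r = 0.908), SPC24 (r = 0.906) and C17orf49 (r = 0.903). Among the members themselves, r was highest between SOX2 and SOX4 (0.72) and between SOX4 and VIM (0.66), and lowest between SOX2 and CD44 (-0.34).

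In the sgNeg1 section SOX2 was listed at 0.233 and 0.181 FPKM in the controls and at 0.0655, 0.113, 0.0917 and 0.0644 FPKM in BRD8. SOX4 was listed at 0.253 and 0.257 FPKM and at 0.108, 0.112, 0.127 and 0.0848 FPKM. NES was listed at 0.0100 and 0.0346 FPKM in sgNeg1 and at 0 in all 4 BRD8 libraries. These values lie far under those of the same genes in every other section, and no direction is read from them.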

How the data were processed

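The authors deposited 1 table of FPKM values for 19102 genes and 48 polyadenylated, strand-specific RNA libraries, in 5 sections divided by empty columns. Per the submitters' processing notes, the tools were TopHat2, Cufflinks and Cuffdiff and the build was hg19, with no version or role given. Each column was assigned to a library by its name; 0 were from elsewhere. No counts are given, so depth was estimated from the steps between low values of genes of at least 2 kb.

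Values were analysed as log2(FPKM + 1) with limma 3.58.1 in R 4.3.3 (two-sided, empirical Bayes, variance trend on), with 1 level per target over all libraries of a section. A gene was tested where 2 or more libraries of the section had 1 FPKM or more. Calls were made at 0.05 after Benjamini-Hochberg adjustment over every gene tested. This scale understates changes of low genes. MEAF6 and VPS72, with 1 library each, borrow their spread from the section. The labels do not say that replicates are separate cultures, so p-values cover only the spread between these libraries, possibly a technical one.

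The members and the other gene lists were chosen with earlier results of these data known. Named genes are the members, up to 3 called genes with the largest change in each other list and comparison, and the 3 genes most like each member; a few genes that this rule names are not reported here; genes named for their level only (OLIG2, POU3F2, SYNM, JAG2, NOTCH3 and marker genes) were chosen after their values were seen where this rule does not name them. Gene models (GENCODE v29) and promoter sequences (RefSeq, GRCh38.p14) are of another build than the table and gave only exon numbers, neighbours and sequences; promoters were found for 7 of 10 members, of which that of VIM did not match its transcripts. Alternatives were a pseudocount of 0.1, no filter, a filter at an FPKM of 5, scaling to the section median, fits of each comparison alone, a replicate block and leaving out each library.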

Additional observations from a re-analysis of the deposited data

How the results depend on the processing

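The calls of SOX2 in TIP60, RUVBL1, RUVBL2, H2AZ and the p53 vector, and of CD44 and VIM in BRD8, held under every alternative run; so did SOX9 in BRD8, except that it was not tested with a filter at an FPKM of 5. Fitted alone, the number of members called became 1 in EP400 (CD44, adjusted p = 0.0448), 1 in TIP60, 0 in TRRAP, 1 in GAS41 (SOX2, adjusted p = 0.00681) and 4 in RUVBL1 (with SOX9 and VIM). Without the filter it became 5 in BRD8 (with SOX2 and SOX4, whose values there are not read), 2 in TRRAP, 3 in TIP60 and 3 in RUVBL1 (each with NES) and 4 in the p53 vector (without VIM); in RUVBL2 it was 3, with NES called and the VIM call lost (adjusted p = 0.375). Leaving out 1 library at a time, the number called ran from 1 to 2 in TIP60, 0 to 1 in TRRAP, 1 to 2 in RUVBL1 and 3 to 5 in the p53 vector; in RUVBL2 it was 2 each time, SOX2 and SOX4. In the same refits the number of all genes called moved by over 1.5 times in 12 comparisons: between 2325 and 3834 in BRD8 (3885 with all libraries), 72 and 2377 in TRRAP (1621), 859 and 1987 in RUVBL1 (3077), 1652 and 1848 in RUVBL2 (3698), 324 and 1176 in H2AZ (667), 9 and 48 in EP400 (436), 0 and 25 in GAS41 (107), 0 and 380 in ACTL6A (89), 2 and 238 in MRGBP (30), 1 and 4 in ING3 (3), 0 and 40 in DMAP1 (0) and 0 and 1315 in MORF4L2 (0). The shares of all genes called that stand beside the members carry this spread. The cause was not tested. Same-numbered deviations had r = 0.029 and -0.026 in BRD8, 0.308 and -0.281 in H2AZ and 0.042 in the p53 vector. Replicate numbers thus gave no common pairing. The opposite signs in H2AZ cannot tell unpaired libraries from batches numbered otherwise. This was not computed for targets with 1 library per guide. With a replicate block the VIM call in the p53 vector was lost (0.13, adjusted p = 0.0787) and no other member call changed. For targets with 1 library per guide, the number used was that of the guide. The block therefore tests no replicate effect in the sgNeg2 and sgNeg3 sections. VIM there was also lost with a pseudocount of 0.1 (adjusted p = 0.0532) and without the filter (adjusted p = 0.0873). Of 74 member changes never called, 31 changed sign in at least 1 alternative, to at most 0.192 in size. Depth limits NES, MSI1, FABP7, GFAP and PROM1 in the guide libraries. No member value stood apart from its group in the 8 tests of groups of 4 libraries.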
